A study of Mus musculus with 2 samples.

Results

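The 5 protein-coding genes that overlapped more regions of higher Control methylated-DNA signal than any other were examined: Wwox, Zfhx3, Tenm3, Foxn3 and Tshz2. They were chosen by the number of listed regions that overlapped their annotated spans, 29 to 55 each, so these counts describe the choice and are not a finding. Together the 5 genes, of 21883 protein-coding genes in the annotation, overlapped 201 of the 35861 listed regions (0.56%) in 3706 kb of sequence. Of all protein-coding genes, 38.2% overlapped at least 1 region. Just inside the choice lay Tshz2 with 29 regions, and just outside it lay Foxp1 and Tiam1 with 28 each.

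The regions compare 2 groups of primary chondrocytes, Control and Uhrf1 cKO (conditional knockout), with 1 library each. Both came from knee cartilage of mice on a C57BL/6 background at postnatal day 3, were grown to confluence and received rhBMP-2, a recombinant bone morphogenetic protein, at 100 ng/ml for 24 hours. Neither the Cre driver nor the number of animals behind a library is given in the sources used here, and the cell type label was not checked against marker genes because the list holds no expression values. The assay was MBD-seq, in which the MBD2 protein pulls down DNA with methylated CpG for sequencing, and the Control library kept 9782276 tags after duplicate removal (44.8% of its total) and the cKO library 15039206 (76.1%). The list holds only regions with more Control signal, and all tags, folds and false discovery rates (FDR, in percent) given for single regions are the authors' own. A fold compares the Control signal at the summit, the highest point of a region, with a local background taken from the cKO tags. No value has a replicate check, so nothing below is a test of a genotype difference. The share of tags kept differed between the libraries, and genotype and library cannot be told apart.

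Methyl groups on CpG dinucleotides are copied to the new strand after each round of replication. Uhrf1 recognises the half-methylated site and brings the methyltransferase Dnmt1 to it, and the bodies of transcribed genes are among the places that usually carry dense CpG methylation. The 5 genes have different products. Wwox encodes a WW-domain oxidoreductase that acts as a tumour suppressor and lies at a common fragile site. Zfhx3 encodes a large transcription factor with zinc fingers and homeodomains, Foxn3 a forkhead repressor of transcription, and Tshz2 a teashirt-family zinc finger homeobox factor. Tenm3 encodes a teneurin, a large transmembrane protein that binds latrophilins on neighbouring cells.

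RefSeq's start-site sequences matched 4 of the 5 genes, and these windows are shown because 1 of them lies under a listed region. Each line gives the 250 bases before the RefSeq start site (GRCm38.p6, 5′ to 3′ on the gene's strand) with CG dinucleotides, the pairs whose methylated form MBD2 binds, in capitals.
Tenm3, chr8:48674691-48674940, minus strand: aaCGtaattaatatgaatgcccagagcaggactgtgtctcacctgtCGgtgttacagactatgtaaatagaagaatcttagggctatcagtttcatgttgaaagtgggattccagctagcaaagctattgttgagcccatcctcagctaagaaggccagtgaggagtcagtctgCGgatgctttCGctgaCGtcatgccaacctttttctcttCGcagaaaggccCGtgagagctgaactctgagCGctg
Zfhx3, chr8:108714394-108714643, plus strand: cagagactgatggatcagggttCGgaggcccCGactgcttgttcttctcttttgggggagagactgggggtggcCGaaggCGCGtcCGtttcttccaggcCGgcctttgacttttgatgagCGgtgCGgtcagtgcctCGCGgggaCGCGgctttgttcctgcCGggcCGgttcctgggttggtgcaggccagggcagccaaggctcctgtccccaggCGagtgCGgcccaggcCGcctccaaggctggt
Foxn3, chr12:99450075-99450324, minus strand: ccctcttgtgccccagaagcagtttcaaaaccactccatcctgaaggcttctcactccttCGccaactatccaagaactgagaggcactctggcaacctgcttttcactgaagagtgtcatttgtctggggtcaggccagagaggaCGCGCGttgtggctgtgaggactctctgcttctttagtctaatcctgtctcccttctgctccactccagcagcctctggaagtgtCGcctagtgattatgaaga
Tshz2, chr2:169632259-169632508, plus strand: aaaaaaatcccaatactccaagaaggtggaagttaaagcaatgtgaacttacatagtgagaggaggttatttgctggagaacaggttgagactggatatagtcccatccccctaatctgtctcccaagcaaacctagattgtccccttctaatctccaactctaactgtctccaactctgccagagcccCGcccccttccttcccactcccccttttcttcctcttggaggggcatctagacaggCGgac

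The listed start sites of Tenm3, Zfhx3 and Foxn3 lie inside their annotated spans, with 848, 435 and 114 kb of span upstream of them. Windows at the 5′ ends of these spans were not examined. Of the windows shown, that of Tenm3 was the one overlapped by a region. That region (chromosome 8, 48674798 to 48675672) had 249 Control tags, a fold of 8.43 and an FDR of 0%, and its summit lay 480 bases upstream of the start site. It covered the first 143 bases of the window as printed, which hold 2 of the window's 8 CG. The Zfhx3 window held the most CG of the 4, 18, a number reached by 21.7% of the 32851 start-site windows of this length in the RefSeq table. No region overlapped it, and the nearest summit, of a region with 167 tags, lay 2.22 kb away. The Foxn3 window held 5 CG and the Tshz2 window 2, against a median of 6 over the 32851 windows. Their nearest summits lay 11.6 kb and 4.81 kb away. Whether the captured DNA of these windows was methylated in either library cannot be read from a list of regions.

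A mature microRNA pair lay within a Zfhx3 region, and its sequences are shown because they are the stretch of a tag-rich Zfhx3 region that the reference tables hold. The region (chromosome 8, 108936418 to 108937094) had 368 tags, a fold of 11.62 and an FDR of 0%. Both mature forms of miR-3108 are given 5′ to 3′ from RefSeq (GRCm38.p6, plus strand), with the seed, bases 2 to 8, in capitals.
mmu-miR-3108-5p, chr8:108936870-108936892: gUCUCUAAagcuagacguuccgg
mmu-miR-3108-3p, chr8:108936911-108936931: cGUCUAGGucuagagucucaa

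The seeds of the 5p and 3p forms differ. The summit of the region fell within the bases that encode the 5p form, whose DNA holds 2 CG, and 26 bases from the 3p form, which holds 1. Expression of the microRNA was not analysed here.

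Relative to length, the genes were also dense. Each was set beside the protein-coding genes of 0.67 to 1.5 times its length. Foxn3 held 8.03 regions per 100 kb of its span, the highest value among 539 genes of that length range, itself included. Zfhx3 held 7.33 per 100 kb and stood first of 214. Tshz2, at 6.59 per 100 kb, stood 3 of 440. Wwox held 6.02 per 100 kb and was 2 of 126, behind Zfhx3. Tenm3, the longest of the 5 at 1297 kb, held 2.85 per 100 kb and was 2 of 78, behind Wwox. The median gene of like length held 3 or 4 regions, and the members' densities were 8.1 times (Tenm3) to 12.3 times (Wwox) the median density of their length group. These orders repeat the count that chose the genes and carry no test.

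**Figure D1:**
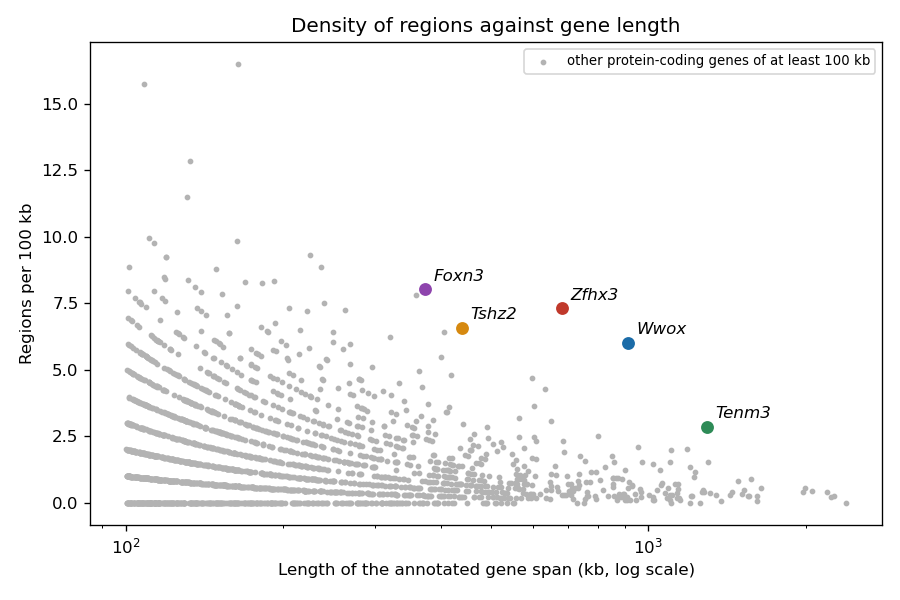
Regions per 100 kb (vertical axis) against the length of the annotated span (kb, log scale) for protein-coding genes of at least 100 kb, with the 5 genes coloured and all others grey. Tenm3 at 2.85 per 100 kb and Wwox at 6.02 stand above the grey points of their length, whereas several shorter genes exceed Foxn3 at 8.03.

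Long genes without a region were a minority beside them, 3.9% to 14.7% of a length group. Among the genes of like length, 5 of 125 had no region for Wwox, 12 of 213 for Zfhx3, 3 of 77 for Tenm3, 79 of 538 for Foxn3 and 53 of 439 for Tshz2. The longest without a region in the Wwox and Tenm3 groups were Lingo2 (1255 kb), Ccser1 (1203 kb) and Frmpd4 (1106 kb, on the X chromosome). In the Zfhx3 group they were Dgkb (754 kb), Malrd1 (729 kb) and Ryr2 (554 kb), the last encoding the cardiac ryanodine receptor. In the Foxn3 and Tshz2 groups they were Ryr2, the glutamate receptor gene Grm5 (551 kb) and Iqcm (536 kb). At the dense end, genes other than the members were Grip1 (27 regions, 4.26 per 100 kb) and Nav2 (20, 3.07) for Wwox, and Foxp1 (28, 4.69) and Grip1 for Zfhx3. For Tenm3 they were Sox5, a chondrogenic transcription factor gene (20, 2.10), and Cdh13 (24, 2.03). For Foxn3 they were Tiam1 (28, 7.81) and Pitpnc1 (19, 7.23), and for Tshz2 they were Tiam1 and Slc39a11 (26, 6.41).

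Wwox (gene ID 80707, chromosome 8, 114439635 to 115352712) held its 55 regions unevenly. Distances are given from the low-coordinate end of each annotated span, which is then cut into 10 equal parts numbered from that end. Parts 5 to 8 of Wwox held 35 regions (63.6%), or 9.58 per 100 kb, whereas parts 2 to 4 held 7, or 2.56 per 100 kb. The longest stretch without a summit ran for 70.9 kb, from 223 to 294 kb. The regions had 12 to 422 Control tags (median 93), the lowest median of the 5 genes. The regions with the most tags lay at 673 kb (422 tags, fold 6.61), 572 kb (364 tags, fold 5.93) and 379 kb (317 tags, fold 11.54), all with an FDR of 0%. By fold, the first was the region at 625 kb (chromosome 8, 115064324 to 115064931), which had 226 tags and a fold of 38.68. The next had few tags, 22 at 21.6 kb (fold 32.96, FDR 31.61%) and 28 at 479 kb (fold 29.24, FDR 31.42%).

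Zfhx3 (gene ID 11906, chromosome 8, 108279311 to 108961636, plus strand) lay 5.48 Mb from Wwox and carried its regions towards its high-coordinate, 3′ end. The first 3 parts held 6 of its 50 regions (2.93 per 100 kb) and the remaining 7 parts held 44 (9.21 per 100 kb). Downstream of the listed start site there were 26 regions in 247 kb, or 10.5 per 100 kb (95% exact Poisson interval 6.88 to 15.4). Upstream of it, within the annotated span, there were 24 in 435 kb, or 5.51 per 100 kb (3.53 to 8.20), so these intervals overlap. Such intervals, here and below, cover counting error only. The regions had 13 to 470 tags (median 146.5). The most tags were found at 570 kb (470 tags, fold 5.62), 348 kb (406 tags, fold 17.38) and 658 kb, the region of miR-3108. The largest fold among all 201 regions, 88.39, belonged to the Zfhx3 region at 556 kb (chromosome 8, 108834661 to 108835154), which had 106 tags and an FDR of 0%. The next folds, 59.33 and 42.85, came from regions of 26 and 31 tags with FDRs of 6.72% and 5.27%.

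Tenm3 (gene ID 23965, chromosome 8, 48225665 to 49522824, minus strand) was the most lopsided. The 3 parts at its low-coordinate, 3′ end held 26 of its 37 regions (70.3%) and 76.8% of their tags, and the 5 parts at the other end held 5 regions (13.5%). From the listed start site to the 3′ end, 27 regions lay in 449 kb, or 6.01 per 100 kb (3.96 to 8.75). The 848 kb upstream of that start site held 10, or 1.18 per 100 kb (0.565 to 2.17). Hence the density of the part downstream of the listed start was close to that of the whole of Wwox, and the long upstream part lowered the value of the annotated span. The longest stretch without a summit, from 916 to 1154 kb, measured 238 kb. Tags per region ran from 25 to 357 (median 128). The region with the most tags, 357, lay 2.83 kb from the 3′ end of the span and had the lowest fold of the gene, 4.55. The next by tags lay at 383 kb (334 tags, fold 8.16) and 183 kb (308 tags, fold 16.56). The largest folds were 56.03 (43 tags, FDR 0.06%), 47.02 (83 tags, FDR 0%) and 25.87 (204 tags, FDR 0%).

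Foxn3 (gene ID 71375, chromosome 12, 99190081 to 99563667, minus strand) had 17 of its 30 regions (56.7%) in the 5 parts at its 3′ end. The 3 parts at that end held 13 of 30 regions, or 11.6 per 100 kb, and the 2 parts at the 5′ end held 1, or 1.34 per 100 kb. Downstream of the listed start site there were 25 regions in 260 kb (9.62 per 100 kb, 6.22 to 14.2), and upstream of it 5 in 114 kb (4.40 per 100 kb, 1.43 to 10.3), so these intervals overlap. The regions had 21 to 383 tags (median 158.5), the highest median of the 5 genes. The region with 383 tags, at 55.6 kb, had a fold of 5.25 and overlapped an annotated pseudogene over 371 bases. Whether tags shared with another copy of that sequence entered its count was not tested. Next by tags were the regions at 278 kb (320 tags, fold 16.27) and 194 kb (303 tags, fold 13.31). The largest folds were 38.93 (40 tags, FDR 0.74%), 29.66 (25 tags, FDR 23.85%) and 24.64 (164 tags, FDR 0%).

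Tshz2 (gene ID 228911, chromosome 2, 169632509 to 170072751, plus strand) had regions near both ends and in its middle. Part 10, at its 3′ end, held 5 of 29 regions and 21.4% of their tags, part 6 held 6 regions and 25.6%, and parts 7 to 9 together held 3 regions. An empty stretch of 83.9 kb ran from 260 to 344 kb. Tags ran from 12 to 310 (median 150). The first by tags lay at 248 kb (310 tags, fold 9.74), 405 kb (233 tags, fold 17.46) and 7.73 kb (224 tags, fold 11.06), all with an FDR of 0%. By fold, the first was the region at 242 kb (chromosome 2, 169873901 to 169874483), with 150 tags and a fold of 29.19. The next folds, 26.37 and 24.39, rested on 12 and 18 tags and had an FDR of 100%.

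**Figure D2:**
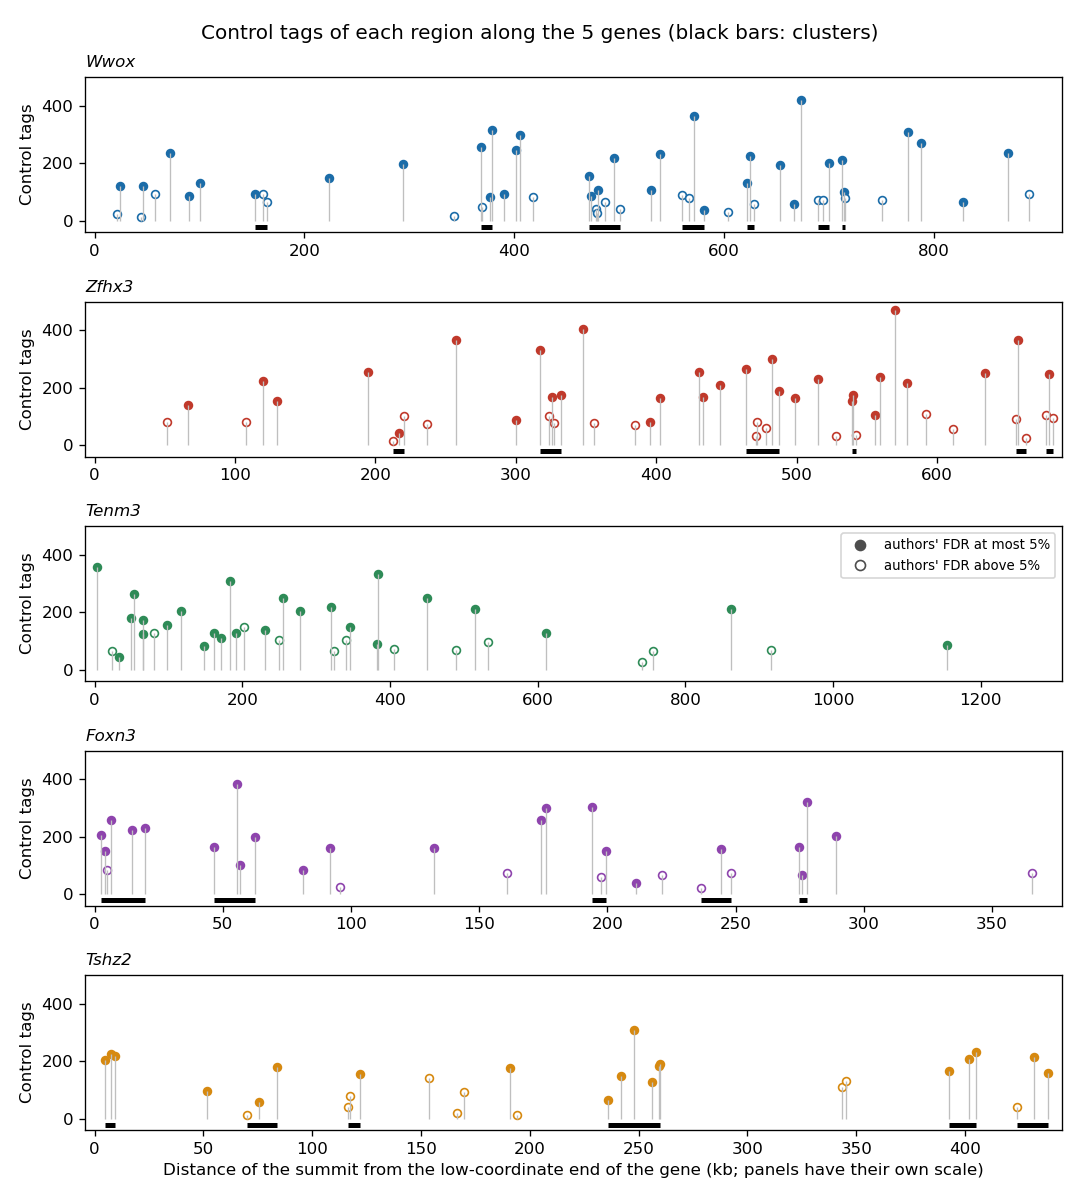
Control tags of every region (vertical axis) against the distance of its summit from the low-coordinate end of the gene (kb), 1 panel per gene with its own distance scale. Filled points have an authors' FDR of at most 5%, open points a larger one, and black bars mark clusters. Tenm3 has no bar and 26 of its 37 points lie in parts 1 to 3 of 10 equal parts, whereas Wwox has 35 of 55 in parts 5 to 8.

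Regions in these genes lay close together, but the genes differed in how. The median distance between neighbouring summits was 7.19 kb in Tshz2, 8.15 kb in Foxn3, 10.7 kb in both Zfhx3 and Wwox, and 18.1 kb in Tenm3. In genes of like length with at least 5 regions, the typical gene's median distance was 26.4 kb (Foxn3 group) to 59.5 kb (Wwox group). Shorter distances follow from more regions in a given length, so the median was also divided by the gene's own mean distance. This ratio was 0.464 in Tshz2, where 134 of 160 genes of like length with at least 5 regions had a higher ratio. In Zfhx3 it was 0.829, with 26 of 88 higher, which makes its spacing the most even of the 5. Wwox (0.664), Foxn3 (0.651) and Tenm3 (0.566) lay between, and the ratio of the typical gene of like length was 0.676 to 0.712. On this scale other genes of like length lay on both sides of each of the 5.

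**Figure D3:**
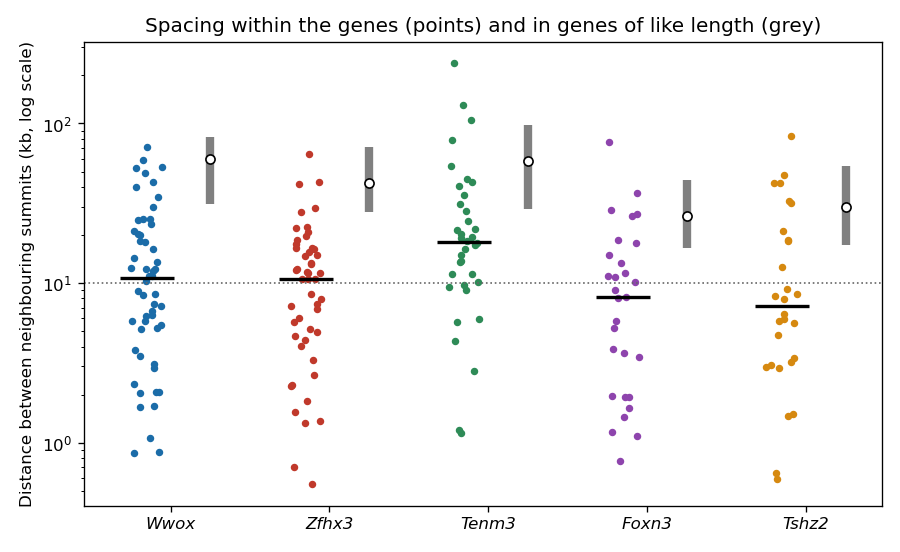
Distance between neighbouring summits (kb, log scale) in each gene, 1 point per pair of neighbours, with the black line at the gene's median. The grey bar spans the lower to the upper quartile of the medians of like-length genes with at least 5 regions, the white point is their middle value, and the dotted line marks 10 kb. The medians of all 5 genes, 7.19 to 18.1 kb, lie below the grey bars.

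Clusters, defined as at least 3 regions of a gene whose neighbouring summits lay at most 10 kb apart, numbered 24 and held 91 of the 201 regions (45.3%, 95% Wilson interval 38.5 to 52.2). Neighbours enter a cluster together, so this interval, which takes regions as independent, may be too narrow. Of all 35861 regions, 18.7% lay in runs of this kind anywhere on a chromosome, a share that mixes dense and sparse sequence. The 5 genes were chosen for many regions, which shortens distances. A higher share in clusters than in the whole list, or in genes of like length, thus follows in part from the choice. In Tshz2, 21 of 29 regions lay in 6 clusters, which took up 17.7% of the span. Foxn3 had 19 of 30 regions in 5 clusters, Wwox 28 of 55 in 7, and Zfhx3 23 of 50 in 6. Tenm3 had 0 of 37, although 9 of its 36 distances were at most 10 kb. Among genes of like length with at least 5 regions, the typical gene also had a share of 0% in each length group. Of such genes, 0 of 62 exceeded the share of Wwox, 4 of 88 that of Zfhx3 and 6 of 191 that of Foxn3. For Tshz2 it was 2 of 160, and for Tenm3 12 of 37. The share over the 5 genes depended on the limits. It was 21.4% with distances of at most 5 kb and 81.1% with at most 20 kb. When regions with an FDR above 5% were left out it was 25.4%, against 10% of all regions under the same FDR limit.

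The largest cluster lay in Wwox, 8 regions in 29.9 kb (chromosome 8, 114910402 to 114940293) with 741 tags, of which 4 had an FDR of at most 5%. Zfhx3 had 6 regions in 24.5 kb (chromosome 8, 108742568 to 108767100) with 928 tags. In Tshz2, 6 regions spanned 24.3 kb in the middle of the gene (chromosome 2, 169868428 to 169892761) with 1027 tags, and all 6 had an FDR of at most 5%. Foxn3 had 6 regions in 17.7 kb at its 3′ end (chromosome 12, 99192403 to 99210058) with 1155 tags, of which 5 passed that limit. The remaining 20 clusters held 3 to 5 regions each.

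In Wwox these were 3 regions at 153 to 164 kb (251 tags), 4 at 368 to 379 kb (705 tags), 4 at 560 to 581 kb (570 tags), 3 at 622 to 628 kb (415 tags), 3 at 689 to 701 kb (343 tags) and 3 at 712 to 716 kb (388 tags). The cluster at 622 to 628 kb held its region of the largest fold. In Zfhx3 there were 3 regions at 212 to 221 kb (158 tags), 5 at 317 to 332 kb (850 tags), 3 at 539 to 542 kb (363 tags), 3 at 656 to 663 kb (486 tags) and 3 at 678 to 683 kb (451 tags). The cluster at 656 to 663 kb held the region of miR-3108, and the last one ended past the annotated end of the gene. In Foxn3 there were 4 regions at 46.0 to 62.8 kb (850 tags), 3 at 194 to 200 kb (513 tags), 3 at 236 to 249 kb (250 tags) and 3 at 274 to 278 kb (550 tags). In Tshz2 there were 3 regions each at 4.49 to 9.65 kb (648 tags), 69.7 to 84.2 kb (251 tags), 116 to 122 kb (272 tags), 392.3 to 405.5 kb (608 tags) and 424 to 438 kb (417 tags). Its cluster at 4.49 to 9.65 kb was the one nearest to the 5′ end of a gene, and all 3 of its regions had an FDR of at most 5%.

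Tags differed little between clustered regions and the others as a whole. The 91 clustered regions had a median of 131 tags and the other 110 a median of 127.5. Those others include pairs at most 10 kb apart and all 37 regions of Tenm3 (median 128). The order differed between genes, since clustered regions had the lower median in Wwox (88.5 against 122) and Zfhx3 (103 against 164) and the higher one in Foxn3 (164 against 83) and Tshz2 (167 against 104).

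Tags and folds were measured in the same comparison as the choice and are given as description. Over the 201 regions the median was 128 tags (95% order-statistic interval 103 to 152), beside 103 for all regions, and the median fold was 11.5 (10.8 to 12.4), beside 12.2. An FDR of at most 5% was listed for 130 of the 201 (64.7%, 57.9 to 71.0), beside 56.9% of all regions. The fold reached 10 in 128 (63.7%, 56.8 to 70.0), beside 64.6%. The second share is thus near that of the whole list. Within genes, FDRs of at most 5% made up 22 of 30 in Foxn3, 25 of 37 in Tenm3, 19 of 29 in Tshz2, 34 of 55 in Wwox and 30 of 50 in Zfhx3. The median tags of Foxn3, Tshz2, Zfhx3 and Tenm3 exceeded those of most like-length genes with at least 5 regions (172 of 191, 143 of 160, 81 of 88 and 33 of 37). That of Wwox exceeded 31 of 62.

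In 4 of the 5 genes the region with the most tags had one of the lowest folds. By fold it ranked 51 of 55 in Wwox, 49 of 50 in Zfhx3, 37 of 37 in Tenm3 and 29 of 30 in Foxn3, whereas in Tshz2 it ranked 24 of 29. The region second by tags did not follow in every gene. By fold it ranked 54 of 55 in Wwox, 9 of 50 in Zfhx3, 28 of 37 in Tenm3, 9 of 30 in Foxn3 and 9 of 29 in Tshz2. High folds came mostly from thin regions: the 21 regions with a fold of at least 25 had a median of 40 tags, close to the 39 of such regions in the whole list, and 4 of them exceeded 100 tags. These 4 were the leading regions by fold in Zfhx3, Wwox and Tshz2 and the third in Tenm3, described above. Across the 201 regions, which share both libraries, the Spearman correlation of tags and fold was -0.09, beside -0.186 over all regions. Tags followed region length more closely (0.82, beside 0.871).

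**Figure D4:**
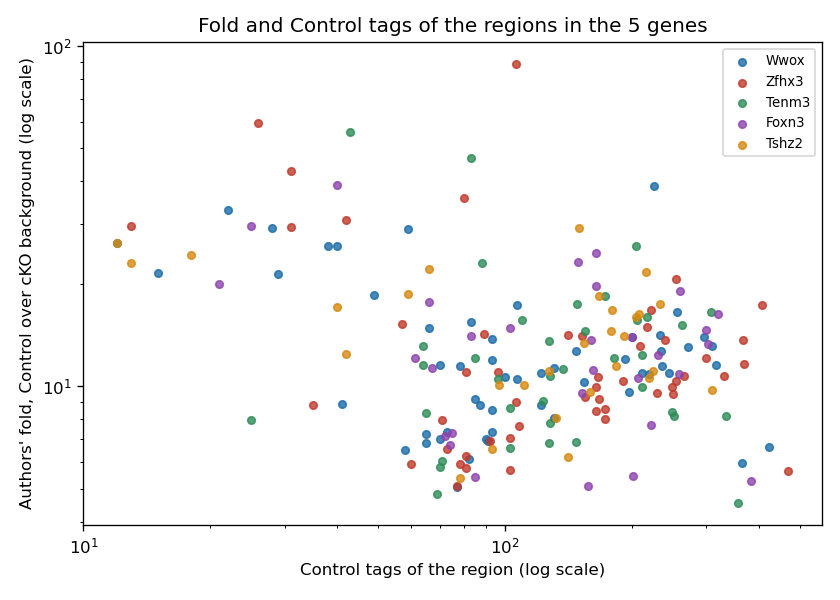
Authors' fold (vertical axis, log scale) against Control tags (horizontal axis, log scale) for the 201 regions, coloured by gene. The region with the most tags, in Zfhx3 with 470 tags at 5.62-fold, lies low. Others with many tags do not, such as the Zfhx3 region with 406 tags at 17.38-fold. Most of the folds of at least 25 lie at few tags.

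Sequence next to the genes was mostly poorer in regions than the genes, with Tenm3 as the exception. Regions whose summit lay in the 500 kb on the low-coordinate side and the 500 kb on the high-coordinate side were counted. For Wwox there were 0.6 and 2.2 per 100 kb, against 6.02 (4.54 to 7.84) in the gene. For Foxn3 there were 2.0 and 1.8, against 8.03 (5.42 to 11.5). Zfhx3 had 2.2 and 4.8 beside 7.33 (5.44 to 9.66), and Tshz2 had 2.2 and 4.0 beside 6.59 (4.41 to 9.46). On the high-coordinate side of Zfhx3 and Tshz2 the intervals overlapped that of the gene (3.07 to 7.14 and 2.44 to 6.18). Beyond the 3′ end of Tenm3 there were 5.2 per 100 kb (3.40 to 7.62), more than the 2.85 (2.01 to 3.93) in its span, and beyond its 5′ end 0.4 (0.0484 to 1.45). The high density at the 3′ end of Tenm3 thus went on outside the gene. As the genes were chosen for their counts, the excess over the flanks is a description.

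**Figure D5:**
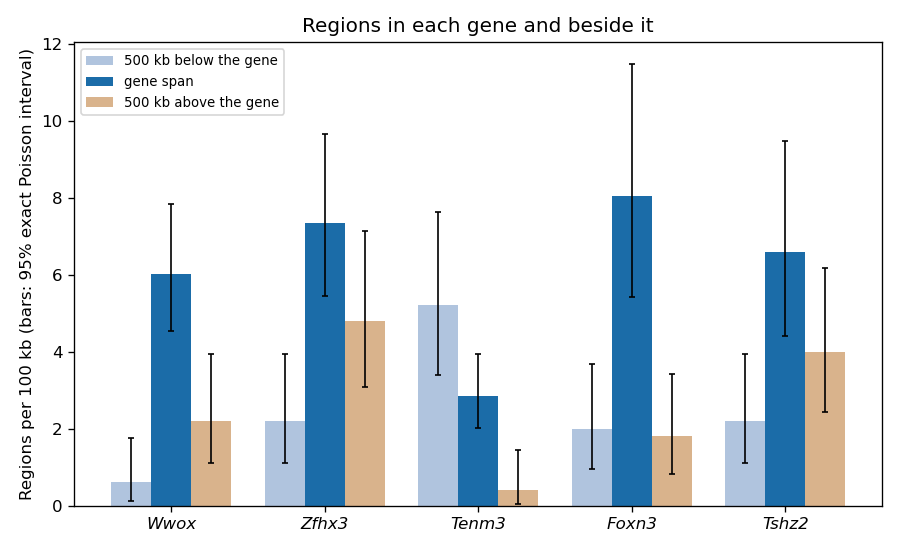
Regions per 100 kb (vertical axis) in the span of each gene (dark bars) and in the 500 kb below and above it in coordinates (light bars), with 95% exact Poisson intervals. The dark bar is the tallest in Wwox, Zfhx3, Foxn3 and Tshz2, and in Tenm3 the bar below the gene, at 5.2, is the tallest.

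Other gene models lay within each span, and the regions over them were set beside the share of the span that these models took up. In Wwox 1 of 55 regions (1.82%) overlapped another model, beside 4.06% of the span. In Zfhx3 it was 6 of 50 (12%, beside 14.4%), among them Lncbate1, a long noncoding RNA gene (89 tags), and the microRNA gene. In Foxn3 it was 3 of 30 (10%, beside 11.8%) and in Tenm3 2 of 37 (5.41%, beside 16.5%). Tshz2 was the one gene with the larger share of regions, 2 of 29 (6.9%, beside 2.78%). Both of these regions overlapped the same long noncoding RNA model and belonged to the cluster at 424 to 438 kb, so this share rests on a single place.

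Relatives of the genes held 0 to 14 regions each. Of 10 family members, 20.2 to 1230 kb long, 8 overlapped a region and 7 had one with an FDR of at most 5%, beside 38.2% and 28.2% of all protein-coding genes of any length. Among the teneurins, Tenm2 held 14 regions (1.14 per 100 kb), Tenm4 13 (1.76) and the X-linked Tenm1 2 (0.222), all below the 2.85 of Tenm3. The teashirt genes Tshz1 and Tshz3 are much shorter, at 76.1 and 75.4 kb, and held 6 (7.89 per 100 kb) and 4 (5.30), near the 6.59 of Tshz2. Foxn1, a regulator of thymus epithelium, held 2 regions in 29.2 kb (6.85 per 100 kb), Foxn4 1 (4.94) and Foxn2 1 (2.01), beside the 8.03 of Foxn3, and these densities rest on 1 or 2 regions. Zfhx2 and Zfhx4 held none, in 32.1 and 198 kb.

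Very long genes, several of them at fragile sites like Wwox, were far less dense. Of 15 such genes, 14 overlapped a region, beside 38.2% of all protein-coding genes of any length. All 14 had one with an FDR of at most 5%, beside 28.2% of all protein-coding genes. The count with any region is near the share of long genes as a whole. Of genes of like length, 4% for Wwox and 3.9% for Tenm3 had no region. For the FDR limit, no share among genes of like length was taken. The 15 genes had a median of 0.548 regions per 100 kb and a highest value of 1.99, in Auts2 (22 regions). Fhit, the fragile site gene often named beside Wwox, held 1 region in 1612 kb (295 tags, fold 15.19). Dmd, which encodes dystrophin and lies on the X chromosome, held none in 2390 kb. Magi2 held 12, Ctnna3 14, Macrod2 11, Lrp1b and Csmd1 9 each, Dlg2 8, Immp2l 6, Naaladl2 and Nbea 4 each, and Dpyd 1. None of the 15 reached the density of Tenm3, the lowest of the 5 genes. By the choice of the 5, no other gene held more than 28 regions. For the longest of the 15, a density below that of Tenm3 was therefore fixed in advance.

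Partners and pathway genes of the 5, taken from a fixed list, had regions in 12 of 16 cases. Of these 16, 9 had a region with an FDR of at most 5%. These shares stand beside 38.2% and 28.2% of all protein-coding genes. The 16 genes are 8.43 to 1077 kb long, and these shares were not matched on length. For Tenm3, the latrophilin genes Adgrl2 (10 regions, 5.76 per 100 kb) and Adgrl3 (7, 0.866) held regions and Adgrl1 held none. For Wwox, the receptor gene Erbb4 held 4 regions, the ubiquitin ligase gene Itch 3, and Wbp2 and Tfap2c 1 each, whereas Trp73 and Dvl2 held none. For Foxn3, the corepressor gene Sin3a held 3 regions, all with an FDR of at most 5%, and the checkpoint kinase genes Chek2 and Chek1 held 5 and 1. For Zfhx3, Runx3, a transcription factor of cartilage, held 3 regions and Pias3 2, all with an FDR of at most 5%. For Tshz2, the corepressor gene Ctbp2 held 4 and Ctbp1 none.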

How the data were processed

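MBD-seq of 1 Control and 1 Uhrf1 cKO library was available as a single region list. The authors ran MACS 1.4.2 with Control as the enriched and cKO as the background library, a p limit of 1e-10 and at most 1 tag per position, per the file headers. Positions are in mm10 according to the submitters' processing notes, and the aligner is not stated in the sources used here. The deposited tags of a region are an unscaled count from the Control library. The deposited score is a multiple of the negative log10 of the caller's p-value, the deposited fold is a ratio to the cKO background, and the deposited FDR is a percent. Only regions with more Control signal are listed, so tags of the cKO library were not analysed here.

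Gene spans came from RefSeq's annotation of GRCm38.p6, to which mm10 corresponds (21883 protein-coding of 49939 gene models on the chromosomes), and any overlap counted. Summits gave distances, clusters, parts of genes and flanks. Named were, per gene, the 3 regions with the most tags, the 3 with the largest fold and every cluster, the densest and the longest region-free genes of like length, and 3 lists totalling 41 genes, all matched by symbol, of which some are not reported here by name. Gene models with Gm or Rik symbols were counted and not named. The RefSeq start-site table matched 4 of the 5 genes. The genes and lists were chosen with earlier results of these data known. Alternatives were stricter score and FDR limits, summits in place of overlap, joined regions, and other limits on clusters and like length. The counting steps were tested on simulated data. Tools were Matplotlib 3.10.9, SciPy 1.17.1, pandas 2.3.3 and NumPy 2.4.6 under Python 3.11.15.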

Additional observations from a re-analysis of the deposited data

How the results depend on the processing

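Of 52 alternative values, 34 stayed within the limits set for them (1.5 times for counts, densities and orders, the 95% interval for medians and shares). With an FDR of at most 5%, the 5 genes held 130 regions (3.51 per 100 kb), with a median distance of 15.5 kb, 25.4% in clusters, a median of 182 tags and a median fold of 12.7. At a score of at least 200 (p of 1e-20), the median was 161 tags and 29.1% lay in clusters, and at a score of at least 150 (1e-15) 36.4% did. Joining regions under 1 kb apart gave 32.2% in clusters. With distances of at most 5 kb the cluster share was 21.4%, and with 20 kb it was 81.1%. Among genes of 0.5 to 2 times the length, the order by density was 3 for Zfhx3, 4 for Tenm3, 4 for Foxn3 and 9 for Tshz2, and with 0.8 to 1/0.8 times it was 1 for both Wwox and Tenm3. With an FDR of at most 5% or a score of at least 200, all 5 orders were as reported. The FDR and score limits leave fewer regions by construction; other causes of these shifts were not tested. No paired analysis was possible because each genotype has 1 library and the list gives tags of the Control library alone. An FDR of 100% was listed for 23 of the 201 regions (11.4%, beside 16.2% of all regions), which had at most 85 tags, and the part of depth in it was not tested.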
